A study of Mus musculus with 75 samples.

Results

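The genes described here were 10 members of the megalin-cubilin endocytic machinery and the brush border of the proximal tubule, chosen by name: *Lrp2*, *Cubn*, *Amn*, *Dab2*, *Clcn5*, *Pdzk1*, *Vil1*, *Ggt1*, *Anpep*, and *Dpp4*. All 10 were found among the 32245 genes of the count table, and all 10 passed the filter on low counts in each of the 3 arms of the study. Whole-kidney RNA had been sequenced 3 days after unilateral ureter obstruction (UUO) of adult mice, from the obstructed kidney and from the contralateral (CL) kidney, in 75 libraries of 12 groups. The ABTAA arm held wild-type mice, either C57BL6/J or drawn from the crosses of the knockout lines, given human IgG Fc as a control (IgG, 8 CL and 8 UUO libraries) or ABTAA, an angiopoietin-2-binding antibody that activates the endothelial receptor TIE2 (ABT, 7 CL and 7 UUO libraries). The *Veptp* arm held mice whose endothelial *Veptp*, a phosphatase that opposes TIE2, was deleted by a tamoxifen-inducible *Cdh5*-CreERT2 (VeKO, 6 CL and 8 UUO libraries) and noninduced *Veptp* wt/lox littermates that carried the same Cre (VeWT, 7 CL and 8 UUO libraries). The *Pdgfb* arm held mice with a tamoxifen-inducible whole-body deletion of *Pdgfb* through *Actb*-CreERT2 (PbKO, 4 CL and 4 UUO libraries) and littermates without Cre (PbWT, 4 CL and 4 UUO libraries). The knockout lines had a mixed background. Female and male mice were used, with an imbalance of sex in some groups of the study. The PbWT CL group includes kidneys of 2 sham-operated mice, unmarked in the labels, which also do not tie CL to UUO kidneys.

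Proximal tubule cells recover filtered proteins through megalin (*Lrp2*) and cubilin (*Cubn*), a pair of very large receptors at the base of the apical microvilli. Cubilin has no membrane-spanning segment and reaches the surface bound to amnionless (*Amn*), the adaptor DAB2 links megalin to the clathrin machinery, and the chloride-proton exchanger ClC-5 (*Clcn5*) serves the acidification of the endosomes that receive the cargo. The microvilli themselves are built on actin bundled by villin (*Vil1*), hold transporters through the PDZ scaffold PDZK1, and carry surface enzymes such as gamma-glutamyltransferase (*Ggt1*), aminopeptidase N (*Anpep*), and dipeptidyl peptidase 4 (*Dpp4*).

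In the mm10 (GRCm38) genome the receptor genes *Lrp2* (chr2:69424340-69586065, minus strand) and *Cubn* (chr2:13276338-13491813, minus strand) lie on the same chromosome, and *Amn* lies at chr12:111271095-111276426. *Dab2* lies at chr15:6299788-6440712 and *Clcn5* at chrX:7153810-7319358, minus strand. The scaffold genes are *Pdzk1* (chr3:96829284-96870926) and *Vil1* (chr1:74409376-74435559). The enzyme genes are *Ggt1* (chr10:75561604-75586200), *Anpep* (chr7:79821803-79861059, minus strand), and *Dpp4* (chr2:62330073-62412231, minus strand). Counts were made per gene over its exons, and 1 neighbour matters for their reading. Of the 3556 exon bases of *Pdzk1*, 1333 are shared with *Gpr89* on the opposite strand, whose median level was 564 CPM (counts scaled to a common library total), and 81 with the antisense gene 4930442L01Rik, with a median of 177 CPM. Whether the counting used the strand is not stated in the sources used here, so reads of these genes and of *Pdzk1* may not have been told apart.

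The promoter letters of both receptors and of *Pdzk1* are shown here. *Pdzk1* passed in every response to UUO in the fits per arm from which the values here are taken, though not in every other setting. RefSeq annotation of GRCm38.p6 gave 16 transcription starts for the 10 genes, and the 200 bases from 250 to 51 bases before each start were searched on both strands for 4 motifs. Capitals mark the GC box GGGCGG, a run bound by SP1 family factors.
*Lrp2* (chr2:69586080-69586279, minus strand): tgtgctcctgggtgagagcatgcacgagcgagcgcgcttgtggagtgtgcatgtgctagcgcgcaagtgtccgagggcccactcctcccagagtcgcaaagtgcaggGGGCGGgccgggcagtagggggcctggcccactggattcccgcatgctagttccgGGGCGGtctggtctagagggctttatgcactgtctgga
*Cubn* (chr2:13491927-13492126, minus strand): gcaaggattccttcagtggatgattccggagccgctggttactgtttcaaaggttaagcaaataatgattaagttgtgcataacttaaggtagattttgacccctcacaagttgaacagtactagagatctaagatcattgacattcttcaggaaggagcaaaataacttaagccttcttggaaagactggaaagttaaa
*Pdzk1*, the first of its starts (chr3:96829815-96830014, plus strand): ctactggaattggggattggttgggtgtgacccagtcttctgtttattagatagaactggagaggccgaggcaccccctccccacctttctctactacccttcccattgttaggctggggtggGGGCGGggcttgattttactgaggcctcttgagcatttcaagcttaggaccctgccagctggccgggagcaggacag
The *Lrp2* window held 2 GC boxes, the *Pdzk1* window 1, and the *Cubn* window none. Over the 16 windows, 7 held a GC box, in 6 of the 10 genes (*Anpep*, *Clcn5*, *Ggt1*, *Lrp2*, *Pdzk1*, and *Vil1*), where 24.6% of 32851 mouse promoters did. TATAAA was found in 3 of the 16 windows, of *Clcn5*, *Dpp4*, and *Ggt1* (9.14% of all promoters), and the HNF1 half-site GTTAAT in 1, of *Dab2* (5.33%). Bases closer to the start than 51 were not searched. The HNF4 letters CAAAGTCCA were in none of the 16 windows and in 0.295% of all promoters.

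Levels are given as CPM after TMM normalization, differences as log2 fold changes with their standard error (SE), and p-values as those of edgeR's quasi-likelihood test adjusted over all genes of the arm by the Benjamini-Hochberg method, with 0.05 as the threshold. CPM are not scaled to gene length, so levels are compared within a gene and not between genes. Where groups are said not to overlap, or means of CL groups to lie above those of UUO groups, the share of all genes that do so was not counted. Library totals ran from 172827 to 2341800 counts with a median of 757897. PbWT UUO libraries held 888357 to 2049326 and PbKO UUO libraries 337545 to 1249343 counts. The injury gene *Havcr1* lay between 4.18 and 24.3 CPM in IgG CL and between 840.3 and 1773 CPM in IgG UUO libraries. The deleted genes did not give a clean check of the genotype labels. *Ptprb*, which encodes VEPTP, was at 31.4 ± 17.6 CPM (SD, n = 8) in VeKO UUO and 48.2 ± 26.2 CPM (SD, n = 8) in VeWT UUO libraries. *Pdgfb* was at 37.2 ± 3.31 CPM (SD, n = 4) in PbKO UUO and 53.2 ± 6.52 CPM (SD, n = 4) in PbWT UUO libraries, but at 19.0 ± 4.01 CPM in PbKO CL against 10.4 ± 6.75 CPM in PbWT CL libraries, the opposite of the label. At median totals of 658876 (PbKO CL) and 868994 counts (PbWT CL) such levels rest on few counts. None of the 10923 genes tested passed between these CL groups by the quasi-likelihood test. The study checked its knockouts by other measures, not reported here. The counts cover whole genes and not the deleted part alone, and every direction between genotypes given here is between libraries labelled PbKO and PbWT, or VeKO and VeWT. Transcripts of *Xist* and of Y chromosome genes, at 10 or more counts each, occurred together in 24 of 75 libraries, among them 4 of 4 PbKO UUO, 2 of 4 PbWT UUO, 2 of 4 PbWT CL, and 0 of 4 PbKO CL libraries. Library names came in 2 forms, a letter and a number split by a low bar (30 libraries, called split names here) or not split (45 libraries, plain names), and the labels do not explain the form. In the *Veptp* arm 8 numbers of split names occur once in a CL and once in a UUO library, and numbers 3, 4, 7, and 8 bear opposite genotypes on the 2 sides. If a number stands for a mouse, 1 library of each of these 4 pairs would bear the wrong genotype, and the labels do not settle this. After removal of the means of group and form of name, the deviations of these 4 pairs correlated at 0.136 to 0.438 and those of the 4 pairs with 1 genotype at 0.063 to 0.404, against a mean of -0.034 between different numbers.

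UUO lowered the receptors, the scaffold PDZK1, and the enzymes GGT1 and aminopeptidase N in the kidneys of IgG-treated mice. *Lrp2*, the scavenger receptor megalin, ranged from 1570.2 to 2957 CPM (median 2300.3) in the 8 CL kidneys and from 649 to 1508 CPM (median 1154) in the 8 UUO kidneys. *Cubn*, its partner receptor, ranged from 302 to 443 CPM (median 332) in CL and from 105 to 223 CPM (median 179) in UUO kidneys. The CL and UUO ranges of both receptors did not overlap. The log2 fold change was -1.04 ± 0.17 for *Lrp2* (adjusted p = 7.44e-06) and -0.97 ± 0.14 for *Cubn* (adjusted p = 1.08e-06). *Amn*, which carries cubilin to the surface, was counted at 12.5 to 90.9 CPM (median 39.8) in CL and at 8.54 to 53.9 CPM (median 32.3) in UUO kidneys, which rests on 5 to 34 counts per UUO library, and its log2 fold change of -0.49 ± 0.34 missed the threshold (adjusted p = 0.274). As these are whole kidneys, fewer proximal tubule cells and less RNA per cell cannot be told apart.

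The adaptor and the endosomal exchanger also fell, by smaller amounts that were not tested against those of the receptors. *Dab2* ranged from 179 to 263 CPM (median 219) in CL and from 140.05 to 195 CPM (median 161) in UUO kidneys of IgG-treated mice, with overlapping ranges and a log2 fold change of -0.39 ± 0.11 (adjusted p = 0.00478). *Clcn5* ranged from 76.9 to 176 CPM (median 134) in CL and from 56.7 to 142 CPM (median 88.2) in UUO kidneys, a log2 fold change of -0.40 ± 0.16 (adjusted p = 0.0474). This call was close to the threshold. It was lost in 12 of 15 other settings, with values between -0.42 and -0.08. Among them were DESeq2 (adjusted p = 0.0761), the exact test (adjusted p = 0.154), no TMM (-0.20), and the replicate number as a block (-0.40 ± 0.16, adjusted p = 0.0509). The *Clcn5* call was also lost when any of 13 libraries was left out, namely IgG CL 1, 5, 6, 7, or 8, IgG UUO 2, 3, 4, 5, 6, or 7, or ABT UUO 3 or 6, with values between -0.32 and -0.41 there. *Dab2* kept its call whichever library was left out, but lost it without TMM (-0.18, adjusted p = 0.259), with thinning to equal depth (-0.23), without the filter on low counts, and among plain names alone (-0.29).

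Among the microvillus genes, *Pdzk1* fell and separated CL from UUO kidneys, while the call for *Vil1* changed with the setting. *Pdzk1*, the scaffold of apical transporters, lay between 1064 and 1565 CPM (median 1431) in CL and between 557 and 741 CPM (median 691) in UUO kidneys of IgG-treated mice, with no overlap and a log2 fold change of -1.05 ± 0.12 (adjusted p = 3.75e-08). *Gpr89*, which shares exon bases with it, changed by -0.84 ± 0.12 (adjusted p = 8.95e-07) and 4930442L01Rik by -1.13 ± 0.24 (adjusted p = 0.000328). *Vil1*, the actin bundler, ranged from 64.1 to 199 CPM (median 154) in CL and from 76.9 to 129 CPM (median 109.8) in UUO kidneys, and its log2 fold change of -0.39 ± 0.20 missed the threshold (adjusted p = 0.119). It passed without IgG CL replicate 4 (-0.49), with the form of the library name as a covariate (-0.35, adjusted p = 0.0399), and among split names alone (-0.66), and was 0.062 among plain names.

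Of the 3 enzymes, *Ggt1* and *Anpep* fell. *Ggt1*, which cleaves extracellular glutathione, ranged from 548 to 1172 CPM (median 820.2) in CL and from 332 to 494 CPM (median 409) in UUO kidneys of IgG-treated mice, a log2 fold change of -1.02 ± 0.15 (adjusted p = 2.37e-06). *Anpep*, a peptidase that trims amino acids from peptide ends, ranged from 66.1 to 105 CPM (median 76.5) in CL and from 19.8 to 46.7 CPM (median 33.7) in UUO kidneys, a log2 fold change of -1.26 ± 0.23 (adjusted p = 3.21e-05). Neither gene's CL and UUO ranges overlapped. *Dpp4*, which removes dipeptides, was at 59.5 to 153 CPM (median 104) in CL and at 41.2 to 145 CPM (median 65.9) in UUO kidneys, and its log2 fold change of -0.44 ± 0.23 missed the threshold (adjusted p = 0.130). It passed without IgG UUO replicate 7, at -0.64, and with the form as a covariate (-0.47, adjusted p = 0.0371). In all, 7 of 10 genes fell and none rose in IgG-treated mice, where 18.4% of the 9579 genes tested in the arm fell. The median log2 fold change was -0.73 over the 10 genes and 0.01 over all genes tested.

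**Figure D1:**
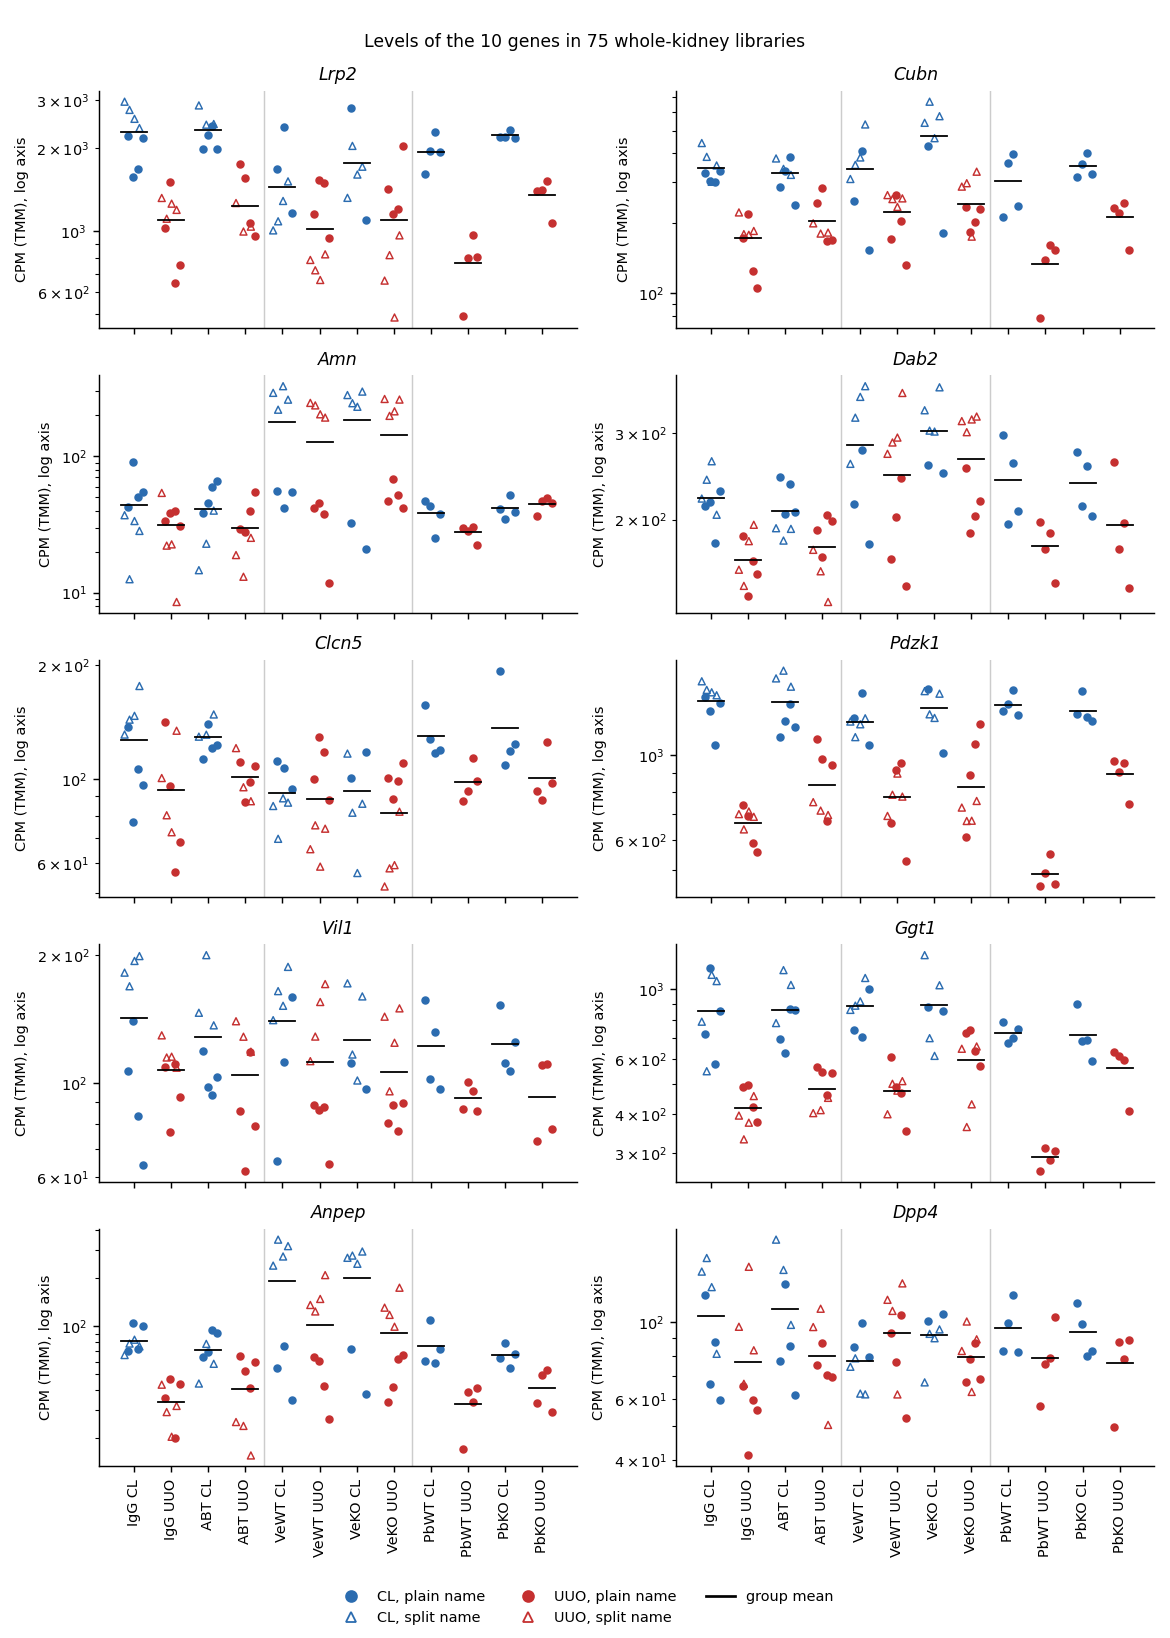
Level of each of the 10 genes in CPM (log axis) in the 75 libraries by group, with CL libraries in blue, UUO libraries in red, triangles for split names, circles for plain names, and a black line at the group mean. *Lrp2*, *Cubn*, *Pdzk1*, *Vil1*, and *Ggt1* had every CL group mean above every UUO group mean, and *Amn* and *Anpep* split by the form of the name in the *Veptp* arm.

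In ABTAA-treated mice 5 of the 10 genes fell with UUO (12.5% of 9579 genes fell), and each of these had also fallen in IgG-treated mice. *Lrp2* ranged from 1985 to 2866 CPM (median 2405) in 7 CL kidneys and from 959.6 to 1751 CPM (median 1069) in 7 UUO kidneys, and its log2 fold change was -0.89 ± 0.18 (adjusted p = 0.000247). *Pdzk1* ranged from 1116 to 1669 CPM (median 1367) in CL and from 671 to 1102 CPM (median 753) in UUO kidneys, a change of -0.70 ± 0.13 (adjusted p = 0.000119). *Ggt1* ranged from 626 to 1153 CPM (median 861) in CL and from 402 to 565 CPM (median 459) in UUO kidneys, a change of -0.81 ± 0.16 (adjusted p = 0.000279). The ranges of these 3 genes did not overlap between CL and UUO kidneys. *Cubn* (239.9 to 386 CPM in CL, 169 to 283 CPM in UUO) changed by -0.66 ± 0.15 (adjusted p = 0.000796) and *Anpep* (43.8 to 95.3 CPM in CL, 15.5 to 64.9 CPM in UUO) by -0.83 ± 0.23 (adjusted p = 0.00582), both with overlapping ranges. The other 5 genes had log2 fold changes between -0.46 (*Amn*) and -0.22 (*Dab2*) and missed the threshold. The median was -0.56 over the 10 genes and 0.00 over all genes tested.

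With the form of the library name as a covariate the same 5 genes fell in ABTAA-treated mice, while calls over all 9579 genes in either direction went from 2420 to 3103. Within the forms the counts differed, though the difference between forms was not tested. Among libraries with split names (3 CL and 3 UUO) the same 5 genes fell, where 2425 of 10076 genes passed in either direction. Among those with plain names (4 and 4) 0 of 10 fell by edgeR's quasi-likelihood test, where 1031 of 8898 genes passed in either direction, with all 10 log2 fold changes negative, from -0.65 ± 0.23 for *Lrp2* (adjusted p = 0.0708) to -0.17 ± 0.21 for *Vil1*, and 5 of them had an unadjusted p under 0.05. In IgG-treated mice 8 of the 10 fell among split names, where 2936 of 10076 genes passed in either direction, and 5 among plain names, where 2074 of 8898 did. Leaving out the libraries with both *Xist* and Y chromosome transcripts left 6 called genes in IgG- and 4 in ABTAA-treated mice, beside 2360 and 1634 of 10012 genes in all.

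The direct comparison asked whether ABTAA changed these genes in obstructed kidneys. None of the 10 differed between ABT and IgG UUO kidneys (0% of 9579 genes passed the quasi-likelihood test, and 344 genes had an unadjusted p under 0.05). Of the 10 genes, 8 lay higher with ABTAA, by a median log2 difference of 0.12, but 4 of 10 with a median of -0.07 among split names and 9 of 10 with a median of 0.29 among plain names. Of the 10, 1 had an unadjusted p under 0.05, *Pdzk1*, at 0.33 ± 0.13 (unadjusted p = 0.0149, adjusted p = 0.999). *Lrp2* differed by 0.16 ± 0.17 and *Cubn* by 0.22 ± 0.14. In CL kidneys 0 of 10 genes differed between ABT and IgG (0% of all genes by the quasi-likelihood test, 311 at an unadjusted p under 0.05 and none of the 10 among them). For the difference between the 2 responses to UUO, 0 of 10 genes passed (0% of all genes, 323 at an unadjusted p under 0.05 and none of the 10 among them). All 10 values of that difference were above 0, from 0.03 ± 0.33 for *Dpp4* to 0.43 ± 0.32 for *Anpep*, and none passed. The count above 0 was 5 among split names (median -0.02), 8 among plain names, without TMM, or with thinning, and 7 without the libraries holding both *Xist* and Y chromosome transcripts. Neither DESeq2 nor, where it was run, edgeR's exact test called any of the 10 genes in these comparisons.

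In the *Veptp* arm fewer of the 10 genes passed. In VeWT mice 2 of 10 genes fell with UUO (8.38% of 11916 genes fell). *Pdzk1* ranged from 1067 to 1463 CPM (median 1227) in 7 CL and from 528 to 957 CPM (median 783) in 8 UUO kidneys (-0.64 ± 0.17, adjusted p = 0.00749). *Ggt1* ranged from 704 to 1088 CPM (median 888) in CL and from 352 to 609 CPM (median 481) in UUO kidneys (-0.88 ± 0.18, adjusted p = 0.000627). The CL and UUO ranges of these genes did not overlap. In VeKO mice 2 of 10 genes fell (3.48% of all genes fell). *Cubn* ranged from 181 to 666 CPM (median 503) in 6 CL and from 175 to 333 CPM (median 232) in 8 UUO kidneys (-0.95 ± 0.23, adjusted p = 0.00828). *Pdzk1* ranged from 1015 to 1493 CPM (median 1367) in CL and from 609.6 to 1207 CPM (median 744) in UUO kidneys (-0.66 ± 0.18, adjusted p = 0.0168). Both of these ranges overlapped. Of these calls that of *Ggt1* in VeWT mice held in all 16 other settings. *Pdzk1* lost its call in 5 of 16 in VeWT mice (adjusted p 0.0505 to 0.12) and in 5 of 16 in VeKO mice (adjusted p 0.0743 to 0.824), the latter including the exact test (adjusted p = 0.0856), and *Cubn* lost its call in 3 of 16 in VeKO mice. The median over the 10 genes was -0.48 in VeWT and -0.45 in VeKO mice, against -0.01 and 0.01 over all genes tested. *Lrp2* had log2 fold changes of -0.50 ± 0.28 in VeWT (adjusted p = 0.236) and -0.67 ± 0.29 in VeKO mice (adjusted p = 0.164), and *Dpp4* had 0.29 ± 0.17 and -0.17 ± 0.18, neither past the threshold. In other settings *Lrp2* passed in 5 of 16 in VeWT and in 5 of 16 in VeKO mice. The fits with the replicate number as a block, which called more of the 10 genes, are given in the closing sections.

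The form of the library name moved with several of these levels. *Amn* lay between 192 and 327 CPM in the 16 *Veptp* arm libraries with split names and between 11.7 and 67.9 CPM in the 13 with plain names, a ratio of medians of 5.88. *Anpep* lay between 99.5 and 350 CPM and between 26.4 and 75.2 CPM, a ratio of 4.07. Neither pair of ranges overlapped. The median of *Vil1* was 1.65 times, of *Cubn* 1.57 times, and of *Dab2* 1.48 times as high in split names, while those of *Lrp2* and *Clcn5* were 1.44 and 1.35 times as high in plain names. In the ABTAA arm the order was turned for the enzyme and the cubilin partner, with *Amn* 1.82 times and *Anpep* 1.49 times as high in plain names, and all ranges overlapped. Both forms occurred in every *Veptp* arm group. What the form stands for, and its part in these levels, was not tested.

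**Figure D2:**
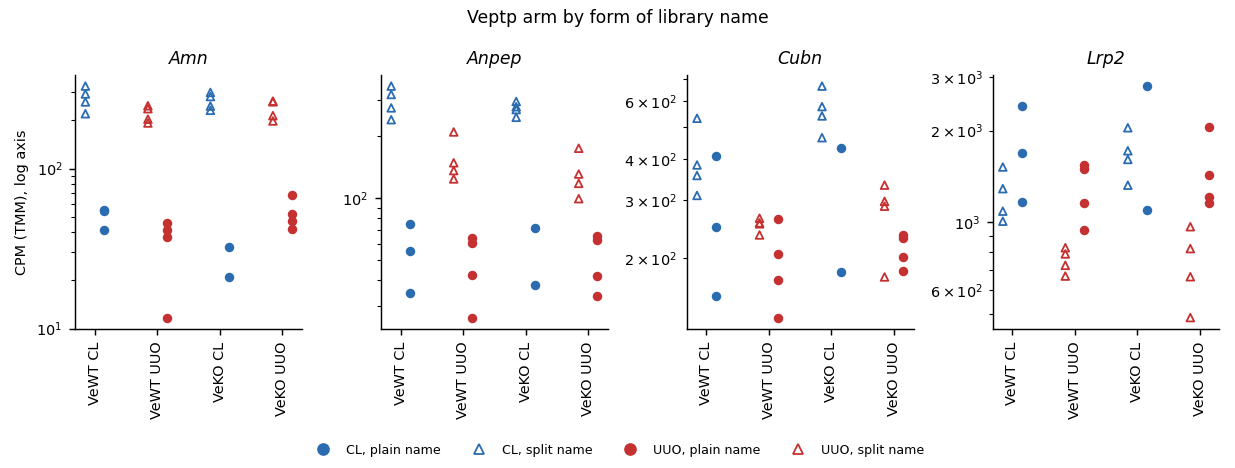
Level of *Amn*, *Anpep*, *Cubn*, and *Lrp2* in CPM (log axis) in the 29 libraries of the *Veptp* arm, by group and by form of library name (triangles for split names, circles for plain names). The 2 forms did not overlap for *Amn* (192 to 327 against 11.7 to 67.9 CPM) or *Anpep* (99.5 to 350 against 26.4 to 75.2 CPM).

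With the form as a covariate 5 genes fell in VeWT and the same 5 in VeKO mice, *Lrp2*, *Cubn*, *Pdzk1*, *Ggt1*, and *Anpep*. Over all 11916 genes the calls in either direction also went up, from 2194 to 4044 in VeWT and from 948 to 2559 in VeKO mice. *Anpep* then changed by -0.67 ± 0.18 in VeWT (adjusted p = 0.00433) and by -0.77 ± 0.20 in VeKO mice (adjusted p = 0.00502), and *Lrp2* by -0.58 ± 0.19 (adjusted p = 0.0157) and -0.88 ± 0.20 (adjusted p = 0.0012). Among split names alone (4 in each group) the same 5 genes fell in both genotypes, and *Dpp4* rose in VeWT mice (0.64 ± 0.20, adjusted p = 0.0251), while 3226 genes in VeWT and 2680 in VeKO mice, of 12556, passed in either direction. Among plain names, *Ggt1* fell in VeWT mice (-0.70 ± 0.21, adjusted p = 0.0273), where 1089 of 7778 genes passed in either direction, and in VeKO mice, where 2 CL libraries remained, none of the 7778 passed the quasi-likelihood test, the 10 genes included, of which 1, *Amn*, had an unadjusted p under 0.05, at a value above 0. Without the form in the fit, single libraries decided some calls. *Cubn* passed in VeWT mice without VeWT CL replicate 1 or 3 or VeKO CL replicate 2, *Lrp2* in VeKO mice without VeKO UUO replicate 4, and *Ggt1* in VeKO mice without VeKO CL replicate 4 or 5 or VeKO UUO replicate 2, each of them lower in UUO kidneys.

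Deletion of endothelial *Veptp* was compared with its controls at the same kidney side. In UUO kidneys 0 of 10 genes differed between VeKO and VeWT (0% of 11916 genes by the quasi-likelihood test, 424 at an unadjusted p under 0.05, and 4 genes by the exact test and 1 by DESeq2, none of them among the 10). The highest value was that of *Ggt1*, at 0.32 ± 0.17 (adjusted p = 1). In CL kidneys 0 of 10 differed (0% of all genes, 230 at an unadjusted p under 0.05), and *Cubn* had the highest value, 0.47 ± 0.24. For the difference between the responses 0 of 10 passed (0% of all genes, 323 at an unadjusted p under 0.05), and *Dpp4* lay farthest from 0, at -0.46 ± 0.25. None of the 10 genes had an unadjusted p under 0.05 in these 3 comparisons, and neither DESeq2 nor the exact test, where it was run, called any of them. Without numbers 3, 4, 7, and 8, none of 11034 genes passed in any of the 3, while *Ggt1* alone of the 10 fell with UUO in VeWT mice (814 genes passed in either direction) and none of the 10 in VeKO mice (108 genes). The standard errors of *Amn* reached 0.83 and those of *Anpep* 0.65 in the difference of responses, the widest of the 10.

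In the *Pdgfb* arm UUO lowered the receptors, *Pdzk1*, *Ggt1*, *Anpep*, and *Dab2* in PbWT mice, and the receptors and *Pdzk1* in PbKO mice. The PbWT log2 fold changes of *Lrp2*, *Cubn*, *Pdzk1*, and *Ggt1* were the lowest among the 6 responses to UUO, though the arms were not tested against each other. *Pdzk1* measured 1307, 1360.5, 1484, and 1280.3 CPM in the PbWT CL libraries and 452, 489, 549, and 459.6 CPM in the PbWT UUO libraries. In the PbKO mice it measured 1281, 1475, 1260.3, and 1231 CPM in CL and 965, 906, 953, and 746 CPM in UUO libraries. The 2 sets of CL libraries overlapped, every UUO library lay below them, and every PbKO UUO library lay above every PbWT UUO library. The log2 fold change with UUO was -1.47 ± 0.13 in PbWT (adjusted p = 3.00e-09) and -0.56 ± 0.13 in PbKO mice (adjusted p = 0.00863).

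For *Ggt1* too, every PbKO UUO library lay above every PbWT UUO library. It measured 784, 675, 700.3, and 747 CPM in PbWT CL and 263, 311, 285, and 304 CPM in PbWT UUO libraries. In PbKO mice it measured 902, 683, 692, and 592 CPM in CL and 629.9, 612, 597, and 410.1 CPM in UUO libraries, so the CL and UUO ranges overlapped there. Its log2 fold change with UUO was -1.32 ± 0.15 in PbWT (adjusted p = 9.53e-08), while the value of -0.36 ± 0.14 in PbKO mice missed the threshold (adjusted p = 0.151).

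Both receptors fell in both genotypes. *Lrp2* measured 1622, 1952, 2286, and 1939 CPM in PbWT CL, 492, 802, 968, and 806 CPM in PbWT UUO, 2205, 2202, 2329.6, and 2185 CPM in PbKO CL, and 1399, 1416, 1529, and 1068 CPM in PbKO UUO libraries. It fell by 1.34 ± 0.17 on the log2 scale in PbWT (adjusted p = 8.45e-07) and by 0.72 ± 0.17 in PbKO mice (adjusted p = 0.0112), with no overlap of CL and UUO libraries in either. *Cubn* measured 212, 363, 399, and 238 CPM in PbWT CL, 78.8, 139.7, 161, and 154 CPM in PbWT UUO, 317, 361, 403, and 325 CPM in PbKO CL, and 232, 222, 245, and 154 CPM in PbKO UUO libraries. It fell by 1.17 ± 0.21 (adjusted p = 6.32e-05) and by 0.73 ± 0.21 (adjusted p = 0.0372). Replicate 4 was the lowest PbKO UUO library for *Lrp2*, *Cubn*, *Pdzk1*, and *Ggt1*.

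*Amn* did not pass in either genotype. It measured 47.4, 43.4, 25.2, and 38.0 CPM in PbWT CL and 29.8, 28.2, 30.5, and 22.4 CPM in PbWT UUO libraries (-0.46 ± 0.19, adjusted p = 0.0561), and 41.3, 34.6, 52.3, and 38.9 CPM in PbKO CL and 36.5, 47.3, 49.7, and 45.6 CPM in PbKO UUO libraries (0.14 ± 0.20, adjusted p = 0.746). Without PbWT CL replicate 3 the PbWT value passed. *Anpep* fell in PbWT mice, with 59.3 to 109.3 CPM in CL and 17.1 to 41.0 CPM in UUO libraries (-1.20 ± 0.24, adjusted p = 0.000226, but 0.0630 with all 12 groups in 1 fit), and had -0.64 ± 0.26 in PbKO mice (adjusted p = 0.147). *Dab2* fell in PbWT mice by 0.44 ± 0.16 on the log2 scale (adjusted p = 0.0350), a call that was lost without PbWT CL replicate 1 or 3 or PbWT UUO replicate 2 or 4, and in 5 of 9 other settings, among them no TMM (-0.08) and thinning (-0.32). *Clcn5*, *Vil1*, and *Dpp4* had log2 fold changes between -0.44 and -0.25 in both genotypes and missed the threshold. *Clcn5* passed in PbWT mice with the exact test (-0.39, adjusted p = 0.0440), with the compared groups alone (-0.39), with thinning (-0.61), and without PbWT UUO replicate 3, PbKO CL replicate 1, or PbKO UUO replicate 3, and *Vil1* without PbWT CL replicate 2 or 4 or PbKO CL replicate 1.

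By count, 6 of 10 genes fell in PbWT mice (19.4% of 10923 genes fell) and 3 of 10 in PbKO mice (2.41% fell), and none rose in either. The median over the 10 genes was -0.82 and -0.42, against 0.04 and 0.00 over all genes tested. Of the 3 PbKO calls, that of *Lrp2* was lost without PbKO UUO replicate 4 (-0.62, adjusted p = 0.0538). The *Cubn* call was lost without PbKO CL replicate 2, 3, or 4 or PbKO UUO replicate 2 or 4, with values between -0.59 and -0.77, and without TMM (-0.65). *Pdzk1* kept its call whichever library was left out. With all 12 groups in 1 fit none of the 3 calls held (*Pdzk1* -0.56, adjusted p = 0.156), and 129 of 12210 genes passed. In the fits per arm from which the values here are taken, *Pdzk1* fell in all 6 responses to UUO. It lost its call in 5 of 16 other settings in VeWT and in 5 of 16 in VeKO mice. With the form as a covariate in the ABTAA and *Veptp* arms *Lrp2* and *Cubn* fell in all 6 too.

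**Figure D3:**
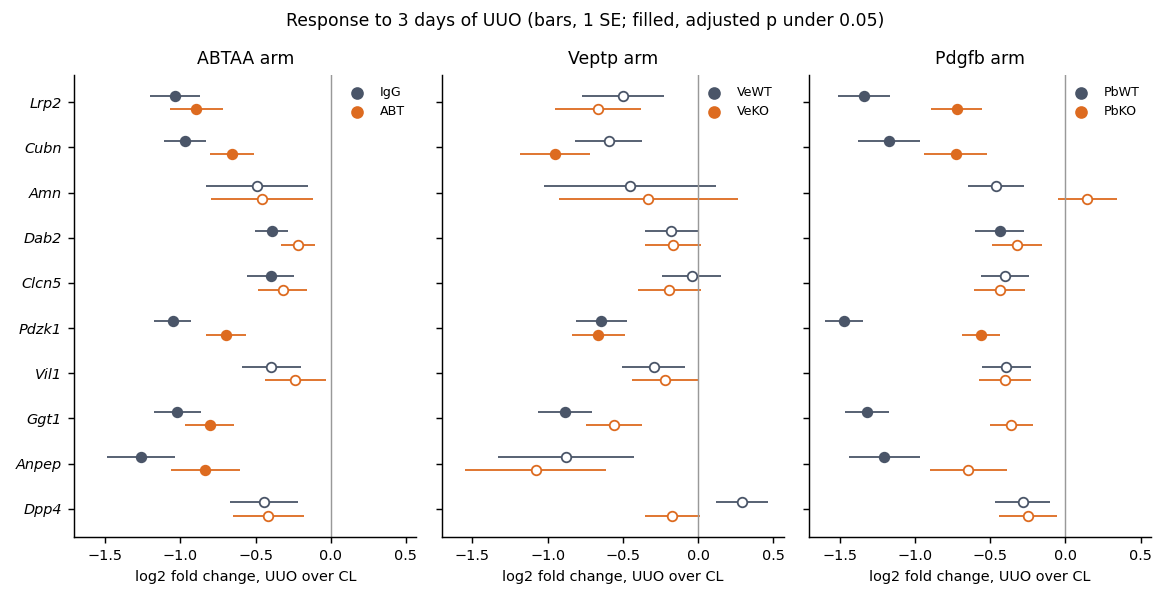
Log2 fold change of UUO over CL kidneys for each of the 10 genes in the 3 arms, with control mice in grey and treated or knockout mice in orange, bars of 1 SE, and filled points for an adjusted p under 0.05. *Pdzk1* was filled in all 6 groups of mice, and the grey and orange points lay farthest apart for *Pdzk1* and *Ggt1* in the *Pdgfb* arm.

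Set against each other directly, obstructed kidneys labelled PbKO held more of 5 of these mRNAs than those labelled PbWT. *Ggt1* was higher by 0.95 ± 0.15 on the log2 scale (adjusted p = 4.60e-05), *Pdzk1* by 0.87 ± 0.13 (adjusted p = 2.70e-05), *Lrp2* by 0.82 ± 0.17 (adjusted p = 0.00120), *Amn* by 0.71 ± 0.18 (adjusted p = 0.00730), and *Cubn* by 0.67 ± 0.21 (adjusted p = 0.0261). For *Ggt1*, *Pdzk1*, *Lrp2*, and *Amn* all 4 PbKO UUO libraries lay above all 4 PbWT UUO libraries, and how many of all genes separate in this way was not counted. For *Cubn* 1 PbKO library, at 154 CPM, lay among the PbWT UUO libraries, and its call was lost without PbWT UUO replicate 1 (0.48) or PbKO UUO replicate 1 (0.63), 2 (0.65), or 3 (0.58). These 5 of 10 compare with 12.0% of 10923 genes that were higher, and the median was 0.53 over the 10 genes and -0.02 over all genes tested. *Anpep* had 0.38 ± 0.25 (adjusted p = 0.319). *Dab2*, *Clcn5*, *Vil1*, and *Dpp4* lay between 0.02 and 0.10 and missed the threshold, and without TMM normalization they lay between -0.24 and -0.18. Leaving out TMM moved the median of all genes from -0.02 to -0.28, and *Lrp2*, *Pdzk1*, and *Ggt1* kept their calls there and in libraries thinned to equal depth. With *Xist* as a covariate all 5 kept theirs. With all 12 groups in 1 fit *Pdzk1* and *Ggt1* kept theirs. As all 4 PbKO UUO libraries held both *Xist* and Y chromosome transcripts, the comparison could not be made without such libraries, and the part of this in the result was not tested. For the same reason the *Xist* covariate does not measure the sex of the mice, and the part of sex was not tested.

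**Figure D4:**
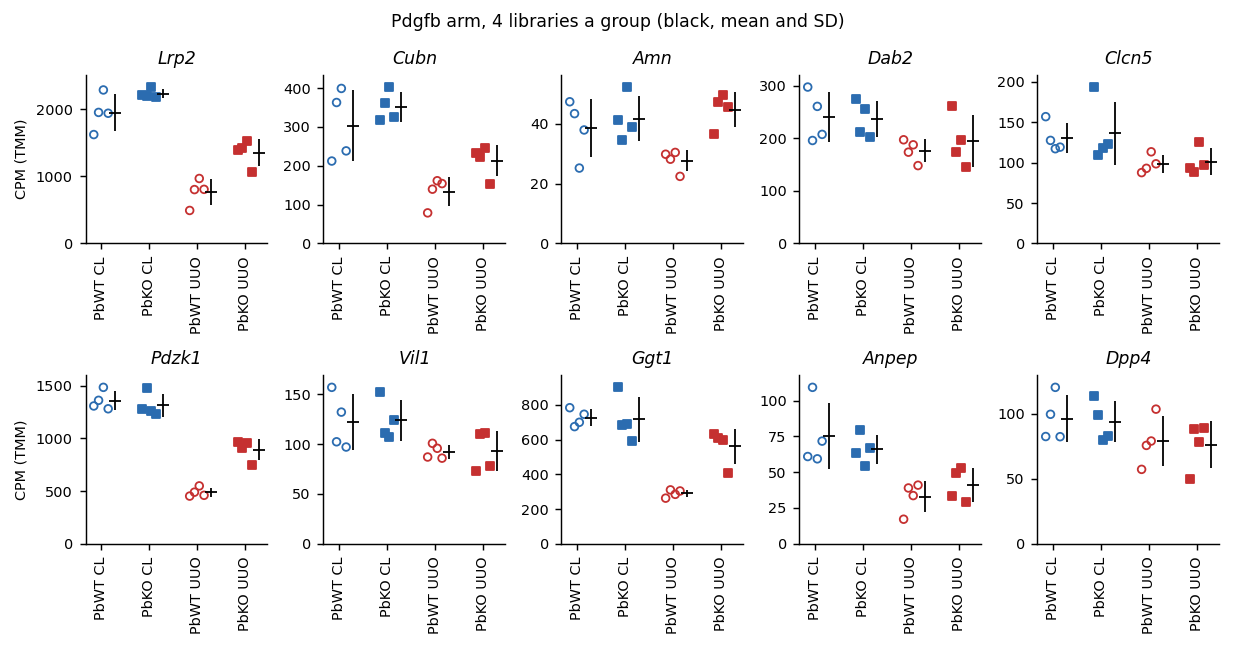
Level of each of the 10 genes in CPM in the 16 libraries of the *Pdgfb* arm, with open circles for PbWT, filled squares for PbKO, CL in blue, UUO in red, and the mean and SD of 4 libraries in black. PbKO UUO libraries lay above PbWT UUO libraries without overlap for *Lrp2*, *Amn*, *Pdzk1*, and *Ggt1*.

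In CL kidneys 0 of 10 genes differed between PbKO and PbWT (0% of 10923 genes by the quasi-likelihood test, 379 at an unadjusted p under 0.05 and none of the 10 among them, and none of the 10 by DESeq2 or the exact test). The values lay between -0.18 (*Anpep*) and 0.23 (*Cubn*). The difference between the responses to UUO passed for 2 of 10 genes, *Pdzk1* at 0.91 ± 0.18 (adjusted p = 0.00205) and *Ggt1* at 0.96 ± 0.20 (adjusted p = 0.00370), where 6.66% of all genes had a higher response in PbKO mice. With all 12 groups in 1 fit, where 22 of 12210 genes passed, both calls were lost (adjusted p = 0.112 and 0.167). *Lrp2* (0.62 ± 0.24, adjusted p = 0.117), *Amn* (0.61 ± 0.27, adjusted p = 0.185), and *Cubn* (0.44 ± 0.29, adjusted p = 0.404) missed the threshold in the fit per arm, so a smaller fall of these in PbKO mice was not shown there. For *Lrp2* the difference of responses passed in 1 of 7 other settings. This difference shares its UUO libraries with the direct comparison. *Gpr89* gave 0.76 ± 0.12 between UUO kidneys (adjusted p = 4.24e-05) and 0.76 ± 0.16 for the difference of responses (adjusted p = 0.00369), close behind *Pdzk1*, with which it shares exon bases.

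Genes that work with these 10 were taken as 3 lists. Of 18 genes of apical endocytosis, 17 were tested in the ABTAA arm, and 4 fell with UUO in IgG-treated mice, with a median of -0.20, a share near the 18.4% of all genes that fell. *Lrpap1*, the chaperone of megalin, fell by 0.77 ± 0.13 on the log2 scale, and *Folr1*, the folate receptor, by 0.70 ± 0.14, beside *Myo6* and *Fcgrt*. In PbWT mice 5 of 18 fell (19.4% of all genes fell) and 1 rose, with *Lrpap1* at -1.23 ± 0.13, *Folr1* at -0.97 ± 0.15, and *Appl1*, an endosomal adaptor, at 0.53 ± 0.20. Between PbKO and PbWT UUO kidneys 4 of 18 were higher in PbKO (12.0% of all genes), *Lrpap1* (0.81 ± 0.13), *Folr1* (0.58 ± 0.15), *Cltb*, a clathrin light chain (0.57 ± 0.19), and *Fcgrt*, the neonatal Fc receptor (0.54 ± 0.14), and the median was 0.11. For the difference of responses, higher for 6.66% of all genes, 1 of 18 passed, *Lrpap1* (0.80 ± 0.18), a share near that of all genes.

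Of 11 other brush border enzymes tested, 7 fell in IgG-treated mice (18.4% of all genes), with a median of -0.69. *Mep1b*, a meprin subunit, had a log2 fold change of -1.90 ± 0.25 and *Dpep1*, a dipeptidase, of -1.60 ± 0.25. In PbWT mice 5 of 11 fell (19.4% of all genes), with *Mep1b* at -2.59 ± 0.14 and *Dpep1* at -1.76 ± 0.22. Between PbKO and PbWT UUO kidneys 5 of 11 were higher in PbKO (12.0% of all genes), *Mep1b* (1.73 ± 0.14), *Dpep1* (1.17 ± 0.22), *Treh*, which splits trehalose (0.97 ± 0.22), *Mep1a*, the other meprin subunit (0.91 ± 0.16), and *Ace*, the angiotensin-converting enzyme (0.65 ± 0.17). The difference of responses (higher for 6.66% of all genes) passed for 4 of 11, *Mep1b* (2.11 ± 0.20), *Treh* (1.15 ± 0.32), *Dpep1* (0.96 ± 0.30), and *Mep1a* (adjusted p = 0.00325).

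Of 14 other microvillus genes, 5 fell in IgG-treated mice (median -0.32, against 18.4% of all genes) and 6 in PbWT mice (median -0.45, against 19.4%). *Pdzd3*, a PDZ scaffold, had the lowest value in both, -0.89 ± 0.17 and -1.09 ± 0.19, followed by *Ush1c* (-0.65 ± 0.17) in IgG-treated and *Pdzk1ip1*, a membrane partner of PDZK1 (-0.93 ± 0.14), in PbWT mice. Between PbKO and PbWT UUO kidneys *Pdzd3* (0.72 ± 0.19), *Pdzk1ip1* (0.68 ± 0.14), and *Slc9a3r1*, the scaffold NHERF1 (0.61 ± 0.15), were higher in PbKO, and *Cobl*, an actin nucleator, was lower (-0.59 ± 0.20), with a median of 0.21 over the 14 and 12.0% of all genes higher. *Pdzk1ip1*, 1 of 14, passed for the difference of responses (0.64 ± 0.20, against 6.66% of all genes). No gene of the 3 lists passed in the comparisons of ABTAA with IgG, of VeKO with VeWT, or of PbKO with PbWT CL kidneys by the quasi-likelihood test, where at most 2 genes of a list had an unadjusted p under 0.05 in any 1 comparison.

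**Figure D5:**
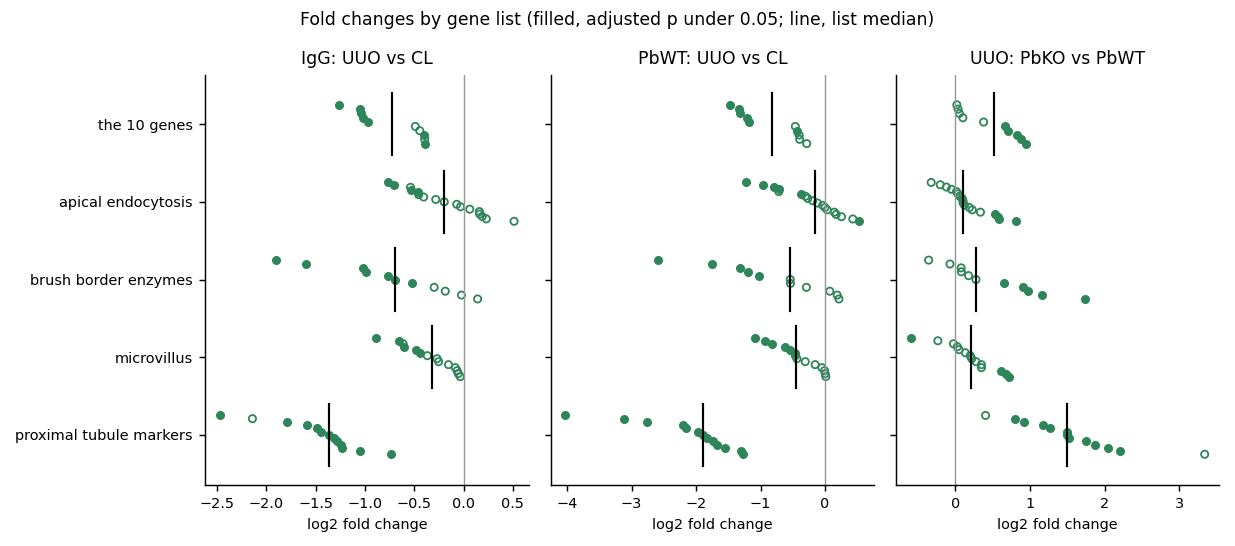
Log2 fold change of each gene of 5 lists in 3 comparisons, with filled points for an adjusted p under 0.05 and a vertical line at the list's median. The median of the 10 genes was -0.73 in IgG-treated and -0.82 in PbWT mice and 0.53 between PbKO and PbWT UUO kidneys, and the proximal tubule markers lay further from 0 in each, at -1.37, -1.89, and 1.50.

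Markers of several cell types moved with these results, to be read against the 18.4% of all genes that fell and the 16.0% that rose in IgG-treated mice, and the 12.0% that were higher and the 6.60% that were lower in PbKO than in PbWT UUO kidneys. Of 13 other proximal tubule markers, 12 fell in IgG-treated mice (median -1.37) and 13 in PbWT mice (median -1.89), and 11 were higher in PbKO than in PbWT UUO kidneys (median 1.50). Their summed level ran from 19371 to 50284 CPM in IgG CL and from 8513 to 15043 CPM in IgG UUO kidneys, and from 5795 to 7446 CPM in PbWT UUO against 12519 to 32028 CPM in PbKO UUO kidneys. Of 7 macrophage markers all 7 rose in IgG-treated mice, and 4 were lower in PbKO than in PbWT UUO kidneys, where their summed level was 163 to 202 CPM against 252 to 387 CPM. Of 4 fibroblast markers all 4 rose in IgG-treated mice, and 3 were lower in PbKO UUO kidneys, at 126 to 259 CPM against 321 to 434 CPM. Other segments moved too. Both distal convoluted tubule markers fell in IgG-treated mice (median -2.61) and were higher in PbKO than in PbWT UUO kidneys (median 3.25), 2 of 3 thick limb markers fell and 2 were higher (medians -0.73 and 0.61), and 1 of 3 collecting duct markers fell and 1 was higher (medians -1.03 and 0.41). Of 4 endothelial markers, 2 rose in IgG-treated mice and 2 were lower in PbKO UUO kidneys (median -0.58), and none of 3 podocyte markers passed in either. None of the markers of these 8 lists was at 0 over a whole group. The part of cell composition in the levels of the 10 genes was not tested.

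Ordered by mean level over the 12 groups, *Lrp2* ran from 2340.3 ± 306 CPM (SD, n = 7) in ABT CL to 767 ± 199 CPM (SD, n = 4) in PbWT UUO kidneys. Of its 11 pairs of neighbours in that order, 10 differed by less than the larger of their SDs, the exception being PbKO CL (2230.2 ± 66.8 CPM) above PbWT CL (1949.8 ± 271 CPM). *Pdzk1* had 2 wider steps, from VeWT CL (1227 ± 126 CPM) to PbKO UUO (892 ± 101 CPM) and from IgG UUO (665 ± 64.2 CPM) to PbWT UUO (488 ± 44.0 CPM), the lowest group. *Ggt1* had 1, again down to PbWT UUO (291 ± 21.5 CPM) from IgG UUO (418 ± 57.9 CPM), and *Anpep* had 1, from PbKO CL (65.9 ± 10.2 CPM) to PbKO UUO (41.2 ± 11.9 CPM). For the other 6 genes all 11 steps were within the larger SD. These orders cross the arms, which were fitted apart and differ in background and controls.

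Across the 75 libraries, after each group's mean was removed, the 10 genes did not vary as a unit. With the form of the library name removed as well, the receptors varied most closely together (*Lrp2* and *Cubn*, r = 0.88), followed by *Lrp2* and *Pdzk1* (0.58) and *Cubn* and *Pdzk1* (0.56), and *Ggt1* and *Dpp4* varied least together (-0.23). *Amn* and *Anpep* correlated at 0.81 before the form was removed and at 0.21 after. The genes most like each of the 10 were sought among 9554 genes with the group means alone removed, where *Lrp2* and *Cubn* correlated at 0.42. Those most like *Lrp2* were *Ptprd* (r = 0.82), *Rdh16* (0.81), *Abca13* (0.80), *Etnk1* (0.77), and *Papss2* (0.76). The gene most like *Cubn* was *Col4a4* (0.75), most like *Pdzk1* was *Galnt11* (0.80), and most like *Ggt1* was *Me1* (0.82). Most like *Amn* was *Rab1b* (0.88), like *Anpep* *Por* (0.86), like *Dab2* *Mob3b* (0.78), like *Vil1* *Slc22a12* (0.78), like *Clcn5* *Slc25a15* (0.70), and like *Dpp4* *Tmprss2* (0.58). These values describe libraries that share depth and form of name with each other, with no test.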

How the data were processed

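RNA of 75 whole kidneys had been sequenced with 1 library per kidney. The deposited table holds whole-number counts per gene, without normalization. The authors merged the reads of 4 wells per kidney and, per the labels, mapped them to mm10 with STAR 2.7.3a, removed duplicates by molecular identifier with UMI-tools 1.1.4, and counted them with featureCounts (Subread 1.4.6-p5). The annotation release is not given in the sources used here. Deduplication makes counts close to molecules.

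The 4 groups of an arm were fitted together and apart from the other arms, in R 4.3.3 with edgeR 4.0.16 (TMM, filterByExpr, glmQLFit, glmQLFTest), with 5 comparisons per arm and Benjamini-Hochberg adjustment over all genes tested in the arm. The exact test of edgeR, which the study used, and DESeq2 1.42.0 served as alternatives. The SE is the size of the log2 fold change divided by the square root of F. The fit was tested on simulated data. Levels, lists, and plots were made in Python 3.11.15 (pandas 2.3.3, numpy 2.4.6, matplotlib 3.10.9). Correlations used log2(CPM + 1). No 2 libraries of a group agreed within sampling noise (chi-square per degree of freedom 1.54 or more over 214 pairs).

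The 10 genes and the gene lists were chosen with earlier results of these data known. All 10 genes were tested in every comparison, and in some of them counts with single values are given in place of all 10. Of the lists, genes past the threshold are named, with up to 2 rises and 2 falls per list for UUO and every one in a treatment or knockout comparison, along with the 1 gene (for *Lrp2* the 5 genes) most correlated with each of the 10.

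Alternatives were no TMM, DESeq2, 2 other filters on low counts, the exact test, a fit of the compared groups alone or of all 12 groups together, thinning to the shallowest library of the arm, a covariate for the form of name or each form alone, the replicate number as a block, and each library left out in turn. Chosen after seeing the data were the block and form together, *Xist* as a covariate, the libraries with both *Xist* and Y chromosome transcripts left out, and, in the *Veptp* arm, numbers 3, 4, 7, and 8 left out. In ABTAA-treated mice 3 CL and 3 UUO libraries share a number in split names. Their deviations from the group means correlated at 0.537, 0.385, and 0.323, against a mean of 0.219 and a highest value of 0.457 between different numbers. With the form of name removed as well they correlated at 0.397, 0.211, and 0.166, against a mean of -0.017 and a highest value of 0.289. The numbers were taken to pair them, though some different numbers correlated as highly and the labels do not state a pairing. The study counts 7 VeWT mice where 8 UUO libraries bear the label, and all 8 were used.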

Additional observations from a re-analysis of the deposited data

Results flagged for a closer look

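The response of *Pdzk1* to UUO differed between PbKO and PbWT mice by 0.91 ± 0.18 on the log2 scale and that of *Ggt1* by 0.96 ± 0.20 (edgeR's quasi-likelihood test, adjusted p = 0.00205 and 0.00370, 16 libraries), each from the test of the difference itself. Both missed the threshold with all 12 groups in 1 fit (adjusted p = 0.112 and 0.167). Single libraries stood apart from their group in 2 of the 120 combinations of gene and group, where about 1 in 20 is flagged by chance. *Lrp2* in PbKO CL replicate 3, at 2329.6 CPM, lay above the next library at 2205 CPM, a gap of 0.862 of the group's range. *Ggt1* in PbKO UUO replicate 4, at 410.1 CPM, lay below the next library at 597 CPM, a gap of 0.850 of the range. Without that library the *Ggt1* difference between PbKO and PbWT UUO kidneys and the difference of responses kept their calls.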

How the results depend on the processing

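Counts of the 10 genes past the threshold moved by over 1.5 times as follows. In ABTAA-treated mice 5 became 3 with thinning and 0 with plain names alone. In VeWT mice 2 became 1 without TMM, with thinning, with plain names alone, with the libraries holding both *Xist* and Y transcripts left out, or with numbers 3, 4, 7, and 8 left out, 5 with the form as a covariate, 6 with split names alone, and 4 with all 12 groups in 1 fit. In VeKO mice 2 became 1 without TMM, with the exact test, with the compared groups alone, or with thinning, 5 with the form as a covariate, with split names alone, or with all 12 groups, 4 with *Xist* as a covariate, and 0 with plain names alone or with those numbers left out. With all 12 groups in 1 fit 3 became 0 in PbKO mice, 5 became 2 between PbKO and PbWT UUO kidneys, and 2 became 0 for their difference of responses. Without TMM or with thinning the 5 became 3. Calls over all genes moved with the setting too, so these counts are not particular to the 10 genes. In either direction they went from 2420 of 9579 to 1018 of 4592 with thinning in ABTAA-treated mice. Without TMM they went from 2194 to 1918 in VeWT and from 948 to 853 in VeKO mice, of 11916. The cause was not tested.

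The numbers in split names were taken to pair libraries in ABTAA-treated mice, which the labels do not state. In that arm the replicate block changed 1 call, that of *Clcn5* in IgG-treated mice (7 genes became 6), and left 5 in ABTAA-treated mice. With the block 3551 and 2667 of 9579 genes passed in either direction. In the *Veptp* arm numbers 3, 4, 7, and 8 carry opposite genotypes in CL and UUO libraries. With group and form removed, same-numbered libraries correlated at over 0.1 in 7 of 8 pairs (0.063 in the other), and 4 of 8 CL and 6 of 8 UUO libraries matched their own number best, and whether a number stands for a mouse could not be settled. The replicate block, which there takes up the form, gave 5 called genes in VeWT and 5 in VeKO mice, with or without the form. It gave 0.14 for *Amn* and 0.047 for *Dpp4* in VeKO mice, against -0.33 and -0.17 in the fit per arm without it. No paired analysis was possible in the *Pdgfb* arm because its library names carry no replicate numbers.

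With each library left out in turn, 6 to 8 genes passed in IgG-treated, 5 to 5 in ABTAA-treated, 2 to 3 in VeWT, 2 to 3 in VeKO, 5 to 8 in PbWT, and 1 to 3 in PbKO mice (1 without PbKO UUO replicate 4), 4 to 5 between PbKO and PbWT UUO kidneys, and 2 to 2 for their difference. It was 0 to 0 in the other 7 comparisons.

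Values that changed sign belonged to genes that did not pass. *Vil1* became 0.062 with plain names alone in IgG-treated mice and 0.062 between ABT and IgG CL kidneys, and the ABTAA difference of *Anpep* -0.12 with split names alone. In VeWT mice *Dab2* became 0.25 and *Vil1* 0.014 with thinning, *Dpp4* -0.040 with plain names alone, and *Clcn5* 0.083 without TMM, 0.022 with the filter at a mean count of 20, 0.24 with thinning, 0.12 with plain names alone, and 0.040 with numbers left out. In VeKO mice *Amn* became 0.047 with the form as a covariate and 0.95 with plain names alone. *Dpp4* became 0.078 in PbWT mice without TMM. Between PbKO and PbWT UUO kidneys, without TMM *Dab2* became -0.18, *Clcn5* -0.21, *Vil1* -0.23, and *Dpp4* -0.24, with *Xist* as a covariate *Clcn5* -0.048 and *Vil1* -0.026, with the filter at 20 *Vil1* -0.00094 and *Dpp4* -0.016, and with all 12 groups *Dpp4* -0.022. For the difference of responses *Dab2* became -0.17 and *Dpp4* -0.24 without TMM, *Dpp4* -0.012 with the filter at 20, and *Clcn5* 0.16 and *Vil1* 0.021 with thinning. With 1 library left out the values ran from -0.15 to 0.026 for *Clcn5* in VeWT mice. Between PbKO and PbWT UUO kidneys they ran from -0.046 to 0.23 (*Dab2*), -0.076 to 0.15 (*Clcn5*), -0.057 to 0.14 (*Vil1*), and -0.10 to 0.18 (*Dpp4*), and for the difference of responses from -0.034 to 0.24, -0.17 to 0.19, -0.15 to 0.11, and -0.092 to 0.19 in the same order. Leaving out TMM raised the median of all genes for UUO from 0.01 to 0.21 in IgG-treated and from 0.04 to 0.40 in PbWT mice. *Amn* rests on 5 to 58 counts per IgG library, and the part of depth in its error was not tested.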
